A study of Homo sapiens with 10 samples.

Results

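Epithelial-mesenchymal regulators and the splicing switches that accompany them were examined in 10 genes: the mesenchymal transcription factor genes ZEB1, ZEB2, SNAI1, SNAI2 and TWIST1, the epithelial transcription factor genes GRHL2, OVOL1 and OVOL2, and the epithelial splicing regulators ESRP1 and ESRP2. They were chosen by name, and all 10 were found by Ensembl identifier among the 58884 genes counted. RNA was measured in HCT116, a human colorectal carcinoma cell line, and in DNMT1 KO, a derivative of that line in which the maintenance DNA methyltransferase gene DNMT1 was targeted, with no agent given to either. The study describes DNMT1 KO as a single derivative line that still makes a shortened DNMT1 at a reduced level, so it is a hypomorph and not a null. HCT116 is represented by 6 libraries, replicates 1, 2, 3, 7, 8 and 9, and DNMT1 KO by 4, replicates 1 to 4. By the labels' batches, replicate 1 of both lines is in batch 1, replicates 2 and 3 of both lines are in batch 2, DNMT1 KO replicate 4 stands by itself in batch 3, and HCT116 replicates 7, 8 and 9 make up batch 4. The study describes its RNA-seq replicates of both lines as cultures grown independently, so p-values measure the spread between cultures of each line, batches included. The main test has no batch term. Because batch 3 holds only DNMT1 KO and batch 4 only HCT116, line and batch cannot be fully told apart in it.

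In epithelial-mesenchymal transition (EMT), cells give up the junctions and polarity of an epithelium and take on the shape and motility of mesenchymal cells. ZEB, SNAIL and TWIST proteins bind E-box motifs and repress epithelial genes such as CDH1, whereas GRHL2 and the OVOL proteins maintain epithelial genes and repress ZEB1. The miR-200 family of microRNAs represses ZEB1 and ZEB2 through their 3′ untranslated regions, and ZEB1 represses the miR-200 genes in return. ESRP1 and ESRP2 are RNA-binding proteins that select epithelial exons in transcripts such as those of FGFR2 and CD44, and ZEB1 represses ESRP1. Colorectal carcinoma lines usually keep epithelial traits, and EMT is studied in them for its link to invasion.

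The data show a strong but mixed difference between the lines. ZEB1 and SNAI2 were higher in DNMT1 KO, and GRHL2, OVOL1, ESRP1 and TWIST1 were lower. GRHL2 was 79.5-fold lower by the group means, and TWIST1, a mesenchymal factor, was at 0 counts in all 4 DNMT1 KO libraries. SNAI1, OVOL2 and ESRP2 did not pass the test, and ZEB2 was not detected beyond 2 counts. Of 23 epithelial target genes 15 were lower in the same test and none was higher, whereas of 14 mesenchymal genes tested 3 were higher, with VIM and SPARC up by 7.86 and 8.54 on the log2 scale, and 1 was lower. Over all genes tested, 7.42% were higher and 6.49% lower in that test. The genes and lists were chosen with earlier results of these data known.

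Because the exchange between miR-200 and ZEB1 is one of the links among these genes, the sequences through which it acts are given first. The mature sequences below are those of RefSeq (GRCh38.p14), with the seed, bases 2 to 8, in capitals. The 5 microRNAs share 2 seeds: miR-141-3p and miR-200a-3p carry one, and miR-200b-3p, miR-200c-3p and miR-429 carry the other.
hsa-miR-141-3p (chr12:6964155-6964176, plus strand): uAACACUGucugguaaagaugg
hsa-miR-200a-3p (chr1:1167916-1167937, plus strand): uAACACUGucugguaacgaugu
hsa-miR-200b-3p (chr1:1167160-1167181, plus strand): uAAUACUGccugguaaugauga
hsa-miR-200c-3p (chr12:6963742-6963764, plus strand): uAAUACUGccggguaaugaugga
hsa-miR-429 (chr1:1169055-1169076, plus strand): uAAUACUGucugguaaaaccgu

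The 3′ untranslated region of ZEB1's MANE Select transcript, 2540 bases in GENCODE 44 on hg38, held 9 sequences complementary to these seeds, 6 for the miR-200b, miR-200c and miR-429 seed and 3 for the miR-141 and miR-200a seed. Of 4459 untranslated regions of MANE Select transcripts at least that long, each read over its first 2540 bases, 48.9% held at least 1 such match, the median was 0, and 2 held 9 or more. The first 2 matches to each seed are shown with the match in capitals. A match is a description of the letters, and no microRNA was measured here.
ZEB1 site 1 (chr10:31527619-31527640, plus strand): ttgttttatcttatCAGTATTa
ZEB1 site 2 (chr10:31527713-31527734, plus strand): tgctaaatccgcttCAGTATTt
ZEB1 site 3 (chr10:31528032-31528053, plus strand): aaaatcatcagaatCAGTGTTt
ZEB1 site 7 (chr10:31528783-31528804, plus strand): gagatttgatttaaCAGTGTTa

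**Figure D1:**
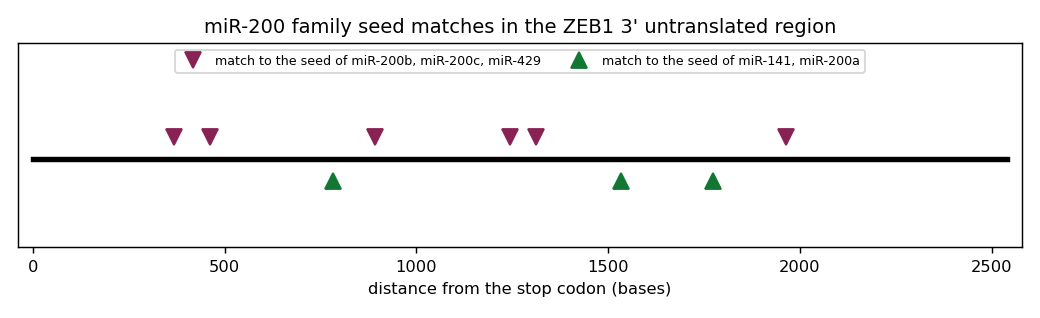
Positions of the 9 seed matches along the 2540 bases of the ZEB1 3′ untranslated region, as distance in bases from the stop codon. Downward marks are the 6 matches to the seed of miR-200b, miR-200c and miR-429 and upward marks the 3 matches to that of miR-141 and miR-200a. They lie between positions 369 and 1964.

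The promoter of ZEB1 was read for the E-box that ZEB and SNAIL proteins bind, CAGGTG on either strand. RefSeq windows of 300 bases around a start site (GRCh38.p14) were matched for 2 of the 10 genes. These were ZEB1 with 7 windows and ZEB2 with 1. Windows on the chromosome that carries SNAI2, GRHL2 and ESRP1 were left out before matching. Those genes could therefore not be matched, and their promoters were not read. The ZEB1 window that ends 50 bases past the MANE Select start holds CAGGTG 3 times, another holds it once and the remaining 5 do not hold it. The window with 3, the most of the 7, is the one printed, with the motif shown in capitals (CACCTG is the same motif on the other strand). It has no other CANNTG, the general E-box that includes CAGGTG. Of 35116 windows, 20.6% held CAGGTG at least once and 0.635% at least 3 times, while 68.7% held CANNTG. The window also holds 17 CG dinucleotides against a median of 14 over all windows. The ZEB2 window (chr2:144520070-144520369, minus strand) holds no CAGGTG and 14 CG.
ZEB1 (chr10:31318966-31319265, plus strand): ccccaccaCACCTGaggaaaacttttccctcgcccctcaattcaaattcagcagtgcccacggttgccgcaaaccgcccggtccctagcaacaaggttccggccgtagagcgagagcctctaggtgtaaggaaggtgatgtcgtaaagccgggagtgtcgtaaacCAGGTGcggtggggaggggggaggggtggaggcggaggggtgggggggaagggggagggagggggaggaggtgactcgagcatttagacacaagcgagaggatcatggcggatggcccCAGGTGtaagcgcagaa

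The libraries held 35418732 to 85991812 counts in HCT116 and 26700853 to 55732013 counts in DNMT1 KO. Levels are given as CPM (counts scaled to a fixed library total after TMM, edgeR's correction for composition) with SD over libraries, and as CPM per kilobase of exon where genes are compared. In edgeR's quasi-likelihood test over 19279 genes, a gene was called at a Benjamini-Hochberg adjusted p under 0.05 with a log2 fold change beyond 1 in size. On this rule 7.42% of genes tested were called higher in DNMT1 KO and 6.49% lower. The median log2 fold change of all genes was -0.07, and with library totals alone as the scale it was 0.14, which moved the share of calls that were higher from 53.4 to 66.3%. Each direction stated below for the 10 genes held on both scales. DNMT1, the check of the labels, averaged 153 ± 64.2 CPM (SD, n = 6) in HCT116 against 19.5 ± 3.68 CPM (SD, n = 4) in DNMT1 KO without overlap, with a log2 fold change of -2.97 (SE 0.33, edgeR adjusted p = 1.74e-05).

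The cell type was checked against markers. Of 10 intestinal epithelial markers, KRT8, KRT18, KRT19, EPCAM and CDX2 were abundant in HCT116, KRT20 had no count, and VIL1, CDX1 and LGALS4 were under 0.1 CPM on average. The list summed to 2488 to 5976 CPM in HCT116 libraries and 629 to 1419 CPM in DNMT1 KO libraries, with KRT8, KRT18 and EPCAM called lower and VIL1 called higher. CDH17, also on the list, was not called. CDX2, an intestinal transcription factor, averaged 30.7 ± 9.09 CPM (SD, n = 6) in HCT116 against 36.0 ± 2.72 CPM (SD, n = 4) in DNMT1 KO and was not called. Of 8 fibroblast markers, COL3A1 and LUM were called higher, COL1A1 was at 12.5 and 6.72 CPM and was not called, and COL1A2, PDGFRA, DCN, THY1 and FAP averaged no more than 0.11 CPM in either group. The fibroblast list summed to 6.25 to 19.6 CPM in HCT116 and 11.2 to 18.3 CPM in DNMT1 KO. Of the leukocyte markers, PTPRC had 4 counts over all libraries, and CD3E, CD14, LYZ and ITGAM averaged at most 0.201 CPM in either group. The 6 leukocyte markers summed to 0.158 to 0.909 CPM in HCT116 and 2.05 to 2.90 CPM in DNMT1 KO. The 1 of them that was tested was called higher (log2 4.18). The 5 endothelial markers summed to 0.314 to 1.76 and 4.46 to 6.16 CPM, with PECAM1 and VWF called higher. The part of these markers in the differences below was not tested. In bulk RNA, fewer cells of a type and less RNA per cell cannot be told apart.

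Of the 10 genes, 9 passed the filter on low counts, 2 were called higher and 4 lower, against the 7.42% and 6.49% of all genes tested. In each of the 6 called genes the libraries of the groups did not overlap, as was the case for 8.40% of genes tested in the upward and 6.79% in the downward direction. Without DNMT1 KO replicate 4, whose low counts were less often even than those of the other 9 libraries, the calls were again 2 and 4.

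**Figure D2:**
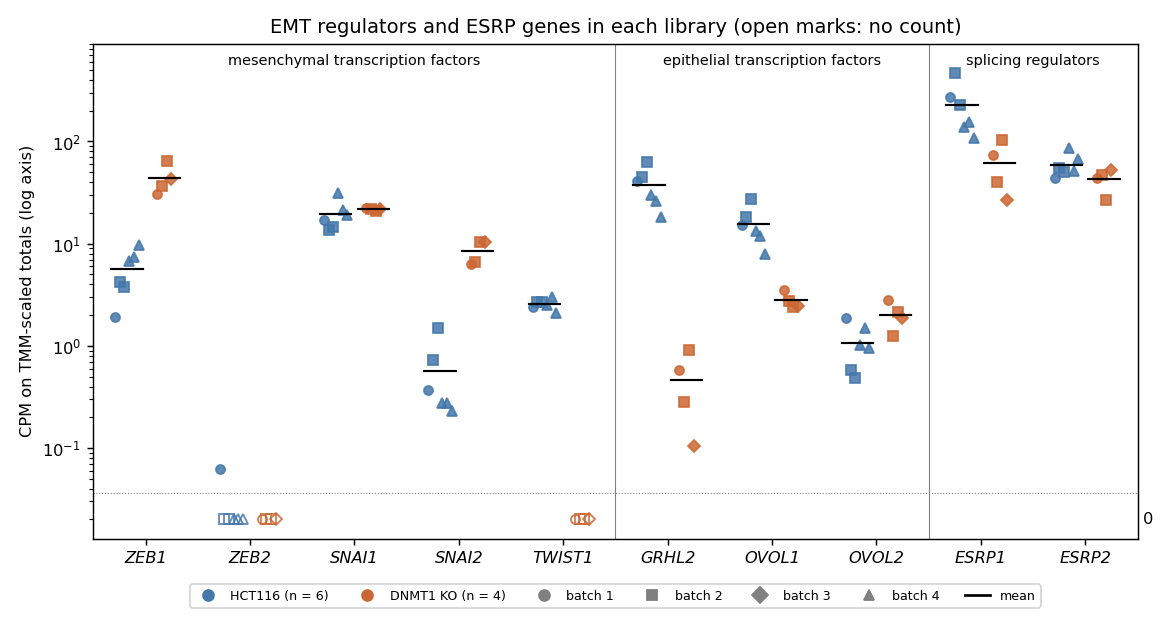
Level of each gene in each library, in CPM on a log axis, with HCT116 in blue (n = 6) and DNMT1 KO in orange (n = 4). Mark shapes give the batch, black lines the group mean, and open marks below the dotted line a library with no count. The groups separate for ZEB1, SNAI2, TWIST1, GRHL2, OVOL1 and ESRP1, and overlap for SNAI1, OVOL2 and ESRP2.

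ZEB1 (ENSG00000148516, chromosome 10, 31318495 to 31529814, plus strand, hg38) encodes a zinc-finger and homeodomain repressor of epithelial genes. In HCT116 the lowest library was at 1.92 CPM, the median at 5.52 and the highest at 9.62. DNMT1 KO replicates 1 to 4 were at 31.0, 36.8, 63.7 and 42.5 CPM. Every DNMT1 KO library was thus above every HCT116 library, by 7.75-fold between the means of 5.61 ± 2.82 CPM (SD, n = 6) and 43.5 ± 14.3 CPM (SD, n = 4). The edgeR log2 fold change was 2.95 (SE 0.38, adjusted p = 6.34e-05). It was larger against the HCT116 libraries of the same batches: the log2 ratio of batch 1 was 4.01, edgeR gave 3.66 within batch 2 (adjusted p = 0.00392; 8.24% of genes were called there) and 3.77 over batches 1 and 2 with batch as a term (SE 0.32, adjusted p = 1.47e-04), where 14.3% of genes were called.

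HCT116 libraries of batch 4 held more ZEB1, 6.84 to 9.62 CPM, than those of batches 1 and 2, 1.92 to 4.19 CPM, without overlap. That difference within 1 genotype was 1.25 on the log2 scale (SE 0.40) and was not called (edgeR adjusted p = 0.0639). The DNMT1 KO mean remained 5.48-fold above the batch 4 mean. ZEB1-AS1, the antisense gene that shares 366 exonic bases (4.23%) with ZEB1, was called higher as well, with a mean of 3.69 ± 1.35 CPM (SD, n = 6) in HCT116 against 11.1 ± 4.63 CPM (SD, n = 4) in DNMT1 KO. It rose by 1.60 on the log2 scale (SE 0.35, edgeR adjusted p = 0.00478), although its libraries overlapped between the groups. The call was lost in batch 2 alone (log2 1.76, adjusted p = 0.122) and with glmTreat (0.168). Counting was not stated to use strand, so reads of the shared bases cannot be assigned to either gene.

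ZEB2 (chromosome 2, 144364364 to 144524583, minus strand), the other ZEB repressor, had 2 counts in HCT116 replicate 1 and no count in the other 9 libraries. It did not pass the filter and has no fold change. In single libraries 3 counts correspond to 0.0349 to 0.104 CPM, so a lower level was not detectable at this depth.

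SNAI2 (chromosome 8, 48917598 to 48921740, minus strand) encodes SLUG, a SNAIL-family repressor of CDH1. HCT116 libraries ran from 0.232 CPM to 1.50 CPM with a median of 0.325, which is 12 to 56 counts. DNMT1 KO replicates 1 to 4 were at 6.37, 6.68, 10.3 and 10.4 CPM. All 4 lay above the HCT116 range, with means of 0.563 ± 0.491 CPM (SD, n = 6) in HCT116 against 8.45 ± 2.23 CPM (SD, n = 4) in DNMT1 KO. The edgeR log2 fold change was 3.93 (SE 0.51, adjusted p = 6.42e-05), and without HCT116 replicate 3, the highest library of that group, it was 4.54. Over batches 1 and 2 with batch as a term it was 3.28 (SE 0.46, edgeR adjusted p = 0.00171). Unlike ZEB1, SNAI2 was lower in HCT116 batch 4, at 0.232 to 0.279 CPM, than in HCT116 batches 1 and 2, at 0.371 to 1.50 CPM (log2 -1.74, SE 0.63, edgeR adjusted p = 0.0972, not called).

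SNAI1 (chromosome 20, 49982980 to 49988886, plus strand), the founding SNAIL repressor, showed no such difference. It ran from 13.7 CPM to 31.5 CPM in HCT116, with a median of 18.1, and was at 22.5, 22.0, 20.7 and 21.8 CPM in DNMT1 KO replicates 1 to 4. The DNMT1 KO libraries lay inside the HCT116 range. The edgeR log2 fold change was 0.16 (SE 0.25, adjusted p = 0.745), and over the alternatives it ran from 0.11 to 0.61 without passing the test. In HCT116 the libraries of batch 4, at 19.2 to 31.5 CPM, were above those of batches 1 and 2, at 13.7 to 16.9 CPM, and DNMT1 KO lay above the HCT116 libraries of its own batches, with log2 0.54 over batches 1 and 2 (SE 0.24, edgeR adjusted p = 0.185, batch as a term).

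TWIST1 (chromosome 7, 19020991 to 19117636, minus strand) encodes a basic helix-loop-helix factor that drives EMT, yet it went the other way from ZEB1 and SNAI2. HCT116 libraries were close together, from 2.11 to 3.01 CPM with a median of 2.62, and held 857 counts in all. The 4 DNMT1 KO libraries held 0 counts. Against a floor of 3 counts over the DNMT1 KO group, TWIST1 was at least 159-fold lower (edgeR adjusted p = 1.30e-06). Low counts were mostly even in 9 libraries, and with the counts of those libraries halved, an alternative chosen after seeing the data, it was at least 91.9-fold lower. It was also the steadiest of the called genes across HCT116 batches, with a log2 difference of -0.05 between batch 4 and batches 1 and 2 (SE 0.40, edgeR adjusted p = 0.951). Over the 10 libraries the genes whose log2 CPM followed TWIST1 most closely were EHF, ANO5 and ZNF239 (Pearson's r 0.998 for each). This likeness follows the 2 groups, since EHF held 27 counts in DNMT1 KO and ANO5 and ZNF239 held 0.

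GRHL2 (chromosome 8, 101492432 to 101669726, plus strand) encodes a grainyhead factor that maintains epithelial junction genes. HCT116 libraries ran from 18.4 CPM to 63.1 CPM with a median of 35.4. DNMT1 KO replicates 1 to 4 were at 0.581, 0.284, 0.905 and 0.104 CPM, which is 23, 16, 57 and 3 counts. The lowest HCT116 library was therefore above the highest DNMT1 KO library by a wide margin, with means of 37.3 ± 16.0 CPM (SD, n = 6) and 0.469 ± 0.351 CPM (SD, n = 4). The edgeR log2 fold change was -6.25 (SE 0.58, adjusted p = 2.58e-06). It was -6.13 as a ratio within batch 1 and -6.49 within batch 2 (edgeR adjusted p = 0.00241).

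OVOL1 (chromosome 11, 65787063 to 65797214, plus strand) encodes a zinc-finger repressor that opposes EMT. HCT116 libraries ran from 7.89 CPM to 27.1 CPM with a median of 14.3, and DNMT1 KO replicates 1 to 4 were at 3.49, 2.77, 2.40 and 2.47 CPM. All DNMT1 KO libraries were below the HCT116 range and within a narrow band. The means were 15.7 ± 6.63 CPM (SD, n = 6) and 2.78 ± 0.498 CPM (SD, n = 4), with a log2 fold change of -2.49 (SE 0.35, edgeR adjusted p = 1.32e-04). Over batches 1 and 2 with batch as a term it was -2.81 (SE 0.35, edgeR adjusted p = 8.95e-04). An antisense gene, ENSG00000255404, shares 27.3% of OVOL1's exon length, and reads from that stretch cannot be told apart by strand.

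OVOL2 (chromosome 20, 17956979 to 18059188, minus strand), the related repressor, was measured at 0.481 to 1.86 CPM in HCT116, with a median of 0.992. DNMT1 KO replicates 1 to 4 were at 2.80, 1.26, 2.13 and 1.88 CPM, overlapping with HCT116 at the lower end. The log2 fold change of 0.92 (SE 0.42), opposite in sign to that of OVOL1, missed the threshold (edgeR adjusted p = 0.166). It ran from 0.74 to 1.66 over the alternatives, with adjusted p-values of 0.0617 and above.

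GRHL2 and OVOL1 varied alike among HCT116 libraries. Batch 4 was at 18.4 to 30.1 CPM for GRHL2 and 7.89 to 13.3 CPM for OVOL1, below batches 1 and 2 at 40.8 to 63.1 and 15.4 to 27.1 CPM. The log2 differences between the batches were -1.03 (SE 0.32) for GRHL2 and -0.91 (SE 0.35) for OVOL1, with edgeR adjusted p-values of 0.0615 and 0.112. Both were smaller than the difference between the lines.

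ESRP1 (chromosome 8, 94641074 to 94707466, plus strand) is an RNA-binding regulator of epithelial exons and had the highest level of the 10 genes per length in HCT116. HCT116 libraries ran from 109 CPM to 464 CPM with a median of 191, and DNMT1 KO replicates 1 to 4 were at 74.5, 40.3, 104 and 26.8 CPM. The groups did not overlap, but DNMT1 KO replicate 3 at 104 CPM came close to HCT116 replicate 9 at 109 CPM. The means were 227 ± 131 CPM (SD, n = 6) and 61.5 ± 35.0 CPM (SD, n = 4), and the edgeR log2 fold change was -1.88 (SE 0.46, adjusted p = 0.0103). It was -2.12 over batches 1 and 2 with batch as a term (SE 0.42, edgeR adjusted p = 0.00910).

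ESRP1 was the only one of the 10 genes called between HCT116 batches, where 8.03% of 18656 genes tested were called. Batch 4 was at 109 to 154 CPM and batches 1 and 2 at 227 to 464 CPM, a log2 difference of -1.27 (SE 0.35, edgeR adjusted p = 0.0390). This call was lost without HCT116 replicate 2 (log2 -0.92, adjusted p = 0.193), replicate 7 (-1.30, 0.0815), replicate 8 (-1.37, 0.106) or replicate 9 (-1.16, 0.195). The difference between the lines was not called within batch 2 alone (log2 -2.25, edgeR adjusted p = 0.0544), nor when edgeR's glmTreat tested for a change beyond 1 (adjusted p = 0.11).

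ESRP2 (chromosome 16, 68229111 to 68238102, minus strand), the paralogue, ran from 43.8 CPM to 86.5 CPM in HCT116 with a median of 53.6, and was at 43.8, 46.5, 27.0 and 52.8 CPM in DNMT1 KO replicates 1 to 4. The groups overlapped, and the log2 fold change of -0.48 (SE 0.26) missed the threshold (edgeR adjusted p = 0.245). Gene counts do not show which exons were used, and reads were mapped without splitting at junctions, so splicing itself was not measured.

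The group difference was tested against batch for all 9 genes in the 2 batches that hold both lines. None of the 9 differed between batch 1 and batch 2, with edgeR interaction p-values of 0.181 to 1.00 before adjustment. This test has 1 library per group in batch 1 and called no gene of 18681 (0.00%), with 345 at an unadjusted p under 0.05.

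**Figure D3:**
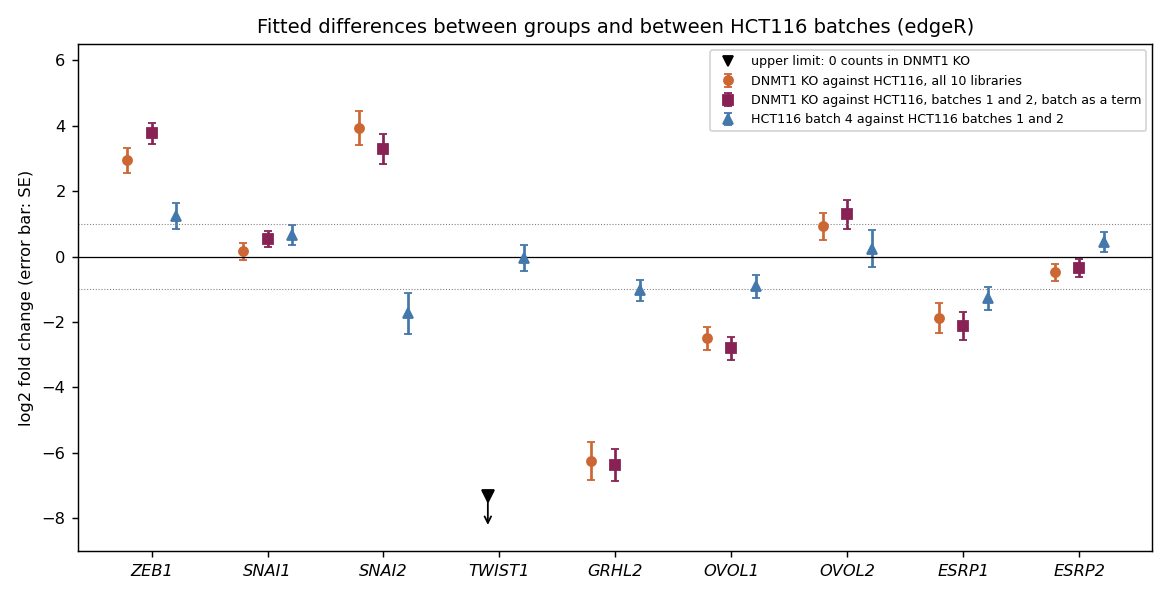
Log2 fold changes with standard errors for the 9 genes tested: DNMT1 KO against HCT116 over all 10 libraries (orange circles), the same over batches 1 and 2 with batch as a term (purple squares), and HCT116 batch 4 against HCT116 batches 1 and 2 (blue triangles). The black mark for TWIST1 is the upper limit set by 3 counts. ZEB1, SNAI2, GRHL2, OVOL1 and ESRP1 keep their side of the dotted lines at 1 and -1 in both comparisons of the lines.

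The order of the 10 genes by level per length differed between the lines. In HCT116, ESRP1 led at 46.6 ± 26.8 CPM per kb (SD, n = 6), above every library of the next gene, SNAI1. SNAI1 (11.4 CPM per kb), ESRP2 (10.7), GRHL2 (6.15) and OVOL1 (4.12) followed, each overlapping with its neighbour. OVOL1 was in turn above TWIST1 (1.29 CPM per kb) in every library, while TWIST1, ZEB1 (0.649), OVOL2 (0.484) and SNAI2 (0.166) overlapped with their neighbours. ZEB2 was last.

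In DNMT1 KO, SNAI1 (12.8 CPM per kb), ESRP1 (12.6), ESRP2 (7.65) and ZEB1 (5.03) formed a run in which neighbours overlapped. SNAI2 followed at 2.49 ± 0.655 CPM per kb (SD, n = 4), below every ZEB1 library. OVOL2 (0.916) and OVOL1 (0.731) overlapped with each other and lay above GRHL2 (0.0773), with TWIST1 and ZEB2 at 0. ZEB1 thus stood below GRHL2 per length in all HCT116 libraries and above it in all DNMT1 KO libraries.

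**Figure D4:**
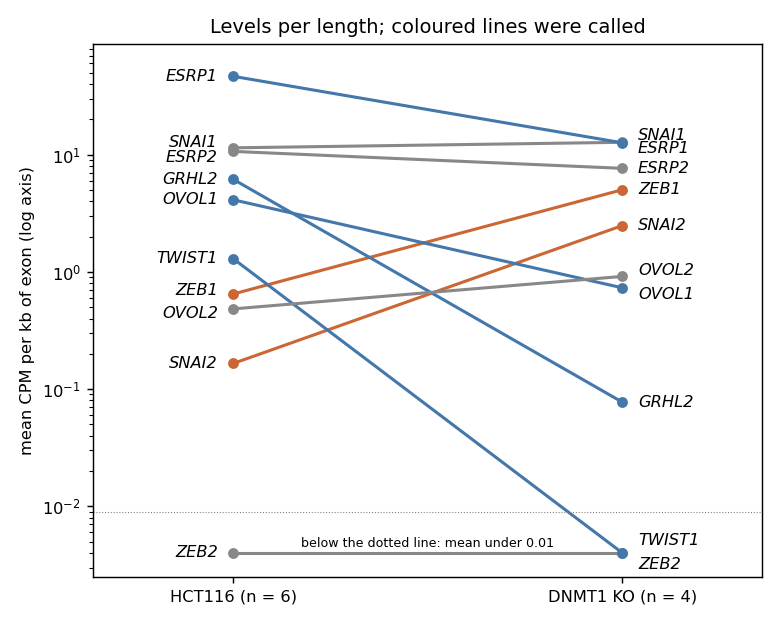
Mean level per length of the 10 genes in each line, in CPM per kb of exon on a log axis. Orange lines were called higher in DNMT1 KO, blue lines lower, and grey lines were not called or not tested. The line of ZEB1 rises from 0.649 to 5.03 while that of GRHL2 falls from 6.15 to 0.0773.

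MIR200CHG, the host gene of miR-200c and miR-141 (chromosome 12, 6963246 to 6964447, plus strand), was looked up after values had been seen. HCT116 libraries held 60 to 135 counts of it and DNMT1 KO libraries 4 to 31. The means were 2.05 ± 0.947 CPM (SD, n = 6) and 0.380 ± 0.233 CPM (SD, n = 4) with no overlap, and the edgeR log2 fold change was -2.40 (SE 0.53, adjusted p = 0.00547). It was -2.57 over batches 1 and 2 with batch as a term (SE 0.49, edgeR adjusted p = 0.00833) and was not called in batch 2 alone (-2.68, adjusted p = 0.0545). The gene is the source of 2 of the microRNAs printed above, but a host gene count does not give the level of a mature microRNA.

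The genes these regulators act on were described by lists of the pathway, 144 genes in all, of which 124 were tested, 9 were called higher and 33 lower. The share called over all genes was 7.42% higher and 6.49% lower, and the median log2 fold change was -0.39 for the lists against -0.07 over all genes tested. Without DNMT1 KO replicate 4 the calls were 11 and 30.

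Epithelial target genes are those for junctions, polarity and epithelial proteases, many of which ZEB factors repress or GRHL2 maintains. Of 23 tested members 15 were called lower and 0 higher, with a median log2 fold change of -1.63. Over all genes tested 6.49% were called lower and 7.42% higher, with a median of -0.07. CDH1, which encodes E-cadherin, averaged 148 ± 121 CPM (SD, n = 6) in HCT116 against 11.5 ± 5.36 CPM (SD, n = 4) in DNMT1 KO, a log2 fold change of -3.67 (SE 0.68, edgeR adjusted p = 0.00138). MAL2, a protein of apical transport, fell from 346 ± 137 to 0.211 ± 0.179 CPM, a log2 fold change of -10.73 (SE 0.78, edgeR adjusted p = 3.12e-07). RAB25, an epithelial recycling GTPase, fell by 3.89 on the log2 scale (SE 0.45, edgeR adjusted p = 2.38e-05). Another 11 called members, among them EPCAM, CLDN4, CLDN7, ST14 and AP1M2, had log2 fold changes of -3.05 to -1.24.

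Mesenchymal genes were split. Of 21 listed, 14 were tested, 3 were called higher and 1 lower, beside 7.42% and 6.49% of all genes tested. The median log2 fold change was -0.26. VIM, the intermediate filament vimentin, averaged 3.25 ± 1.86 CPM (SD, n = 6) in HCT116 against 759 ± 195 CPM (SD, n = 4) in DNMT1 KO, a log2 fold change of 7.86 (SE 0.52, edgeR adjusted p = 1.36e-07). SPARC, a matrix glycoprotein, rose from 1.88 ± 1.26 to 705 ± 126 CPM, by 8.54 (SE 0.62, edgeR adjusted p = 3.04e-07), and PDGFRB, a receptor of mesenchymal cells, by 3.96 (SE 0.37, edgeR adjusted p = 2.77e-06). S100A4, often used as a mesenchymal marker, fell by 2.70 (SE 0.55, edgeR adjusted p = 0.00283), and in batch 2 alone it was not called (adjusted p = 0.0996). The number called higher was 6 with no filter on low counts and 5 over batches 1 and 2 with batch as a term, and the number called lower ranged from 0 in batch 2 alone to 3 with DESeq2 or a batch term. Without DNMT1 KO replicate 4 the number called higher was 5, and the number called lower was 3 without DNMT1 KO replicate 3 and 2 without HCT116 replicate 9. In the same libraries the fibroblast markers COL3A1 and LUM were called higher (log2 7.84 and 8.18). DCN went from 0 to 21 counts, COL1A2 from 0 to 12 and FAP from 0 to 1. COL1A1 went the other way, with a lower mean in DNMT1 KO, and was not called. The 8 fibroblast markers summed to 6.25 to 19.6 CPM in HCT116 and 11.2 to 18.3 CPM in DNMT1 KO, which overlap. The part of such cells in the result was not tested.

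Other epithelial transcription factors had 1 of 13 tested members called higher and 6 lower, beside 7.42% and 6.49% of all genes tested. The list median was -0.90. The number lower was 3 with the even counts halved and 1 under the filter of 10 counts in every library, and the number higher was 0 with glmTreat or in batch 2 alone. EHF and ELF3, ETS-family factors of epithelia, were almost lost: EHF averaged 70.3 ± 18.6 CPM (SD, n = 6) in HCT116 against 0.143 ± 0.0283 CPM (SD, n = 4) in DNMT1 KO, and ELF3 92.4 ± 56.2 against 0.222 ± 0.0419 CPM. Their log2 fold changes were -8.91 (SE 0.38) and -8.70 (SE 0.65), with edgeR adjusted p-values of 2.56e-09 and 3.55e-07. KLF5, a factor of intestinal crypts, fell by 1.52 (SE 0.42, edgeR adjusted p = 0.0202), a call lost without DNMT1 KO replicate 1, 2 or 4 (adjusted p 0.0668, 0.0718 and 0.0649). FOXA1, a pioneer factor of endodermal epithelia, rose from 2.94 ± 0.828 to 7.43 ± 1.30 CPM, by 1.34 (SE 0.29, edgeR adjusted p = 0.00433), with the call lost in batch 2 alone (adjusted p = 0.0914) and with glmTreat (0.392).

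Relatives of the EMT factors and other EMT transcription factors had 0 of 9 tested members called higher and 3 lower, with a median of 0.20. Over all genes tested 7.42% were called higher and 6.49% lower. With no filter on low counts 1 member was called higher. ETS1 fell by 5.00 on the log2 scale (SE 0.67, edgeR adjusted p = 8.52e-05), and without DNMT1 KO replicate 3 the value was -5.68. SOX9, a crypt progenitor factor, fell by 2.96 (SE 0.41, edgeR adjusted p = 1.19e-04) and FOXC1 fell by 2.20 (SE 0.37, edgeR adjusted p = 6.03e-04).

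Among other splicing regulators of epithelial and mesenchymal exons, 2 of 24 tested members were called higher and 3 lower, with a median of -0.35, beside 7.42% and 6.49% of all genes tested. With glmTreat or in batch 2 alone 1 was called in each direction, and under the filter of 10 counts 0 were called higher. CELF2, which rises in mesenchymal cells, held 24 counts in HCT116 and 3105 in DNMT1 KO, a log2 fold change of 7.71 (SE 0.78, edgeR adjusted p = 5.78e-06). MBNL2, a muscleblind splicing factor, fell from 126 ± 43.1 to 16.1 ± 10.4 CPM, a log2 fold change of -2.97 (SE 0.41, edgeR adjusted p = 1.21e-04), and MBNL3 fell by 1.80 (SE 0.39, edgeR adjusted p = 0.00505). The MBNL3 call was lost over batches 1 and 2 with batch as a term (log2 -1.42, adjusted p = 0.0774), in batch 2 alone (-1.10, 0.357) and with glmTreat (0.0893). RBFOX3 rose by 1.98 from a low level of 0.268 CPM (SE 0.59, edgeR adjusted p = 0.0317). Its call was lost without HCT116 replicate 1 or 8 or DNMT1 KO replicate 1, 2 or 3 (adjusted p 0.0523 to 0.0788), leaving 1 called higher.

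Genes whose exons ESRP proteins are known to select had 4 of 10 tested members called lower and 0 higher. Over all genes tested 6.49% were called lower and 7.42% higher, and the list median was -0.24. CD44, a hyaluronan receptor with ESRP-dependent variable exons, fell from 853 ± 363 to 90.0 ± 19.2 CPM, a log2 fold change of -3.24 (SE 0.35, edgeR adjusted p = 1.22e-05). SLC37A2 fell by 3.63 (SE 0.56, edgeR adjusted p = 2.89e-04), and without HCT116 replicate 3 the value was -3.02. ITGA6, an integrin of epithelial basement membranes, fell by 1.34 (SE 0.26, edgeR adjusted p = 0.00217), a call lost in batch 2 alone (adjusted p = 0.123) and with glmTreat (0.303). FGFR2 fell by 1.07 (SE 0.29, edgeR adjusted p = 0.0193) and was not called without HCT116 replicate 2 or 3 (log2 -0.98 and -0.96) or without DNMT1 KO replicate 1, 2 or 4 (adjusted p 0.0647, 0.0666 and 0.0709). Without HCT116 replicate 2, 1 member of the list was called higher. With glmTreat or in batch 2 alone 2 members were called lower, and on library totals alone 1 was called higher. These are gene totals and say nothing about which isoform was made.

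TGF-beta signalling genes, the pathway that induces many EMT factors, had 3 of 15 tested members called higher and 0 lower. Over all genes tested the shares were 7.42% and 6.49%, and the list median was 0.20. SMAD7 and SKIL are inhibitors of the pathway and TGFB3 is a ligand. SMAD7 rose by 1.55 (SE 0.40, edgeR adjusted p = 0.0147; 0.0625 without DNMT1 KO replicate 3) and TGFB3 by 1.22 (SE 0.31, edgeR adjusted p = 0.0125; 0.0540 without DNMT1 KO replicate 2). SKIL rose by 1.39 (SE 0.41, edgeR adjusted p = 0.0309), a call lost without HCT116 replicate 1, 7, 8 or 9 or DNMT1 KO replicate 1 or 3 (adjusted p 0.0565 to 0.166). With batch as a term the SKIL call was also lost, over all libraries (adjusted p = 0.0581) and over batches 1 and 2 (0.150). Without DNMT1 KO replicate 3, 1 member was called higher, and with glmTreat or in batch 2 alone 0 were. Without HCT116 replicate 8, 2 members were called lower, and 1 was without HCT116 replicate 1, 7 or 9 or DNMT1 KO replicate 2, 3 or 4.

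Corepressors and turnover partners of SNAIL and ZEB proteins had 1 of 16 tested members called lower and 0 higher, with a median of 0.01. That is near the share of all genes tested that were called lower, 6.49%. It was HDAC1, a histone deacetylase, which fell from 251 ± 53.9 to 101 ± 19.3 CPM, a log2 fold change of -1.31 (SE 0.24, edgeR adjusted p = 0.00133). This call was lost in batch 2 alone (log2 -0.79, adjusted p = 0.228) and with glmTreat (0.305), which left 0 called.

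**Figure D5:**
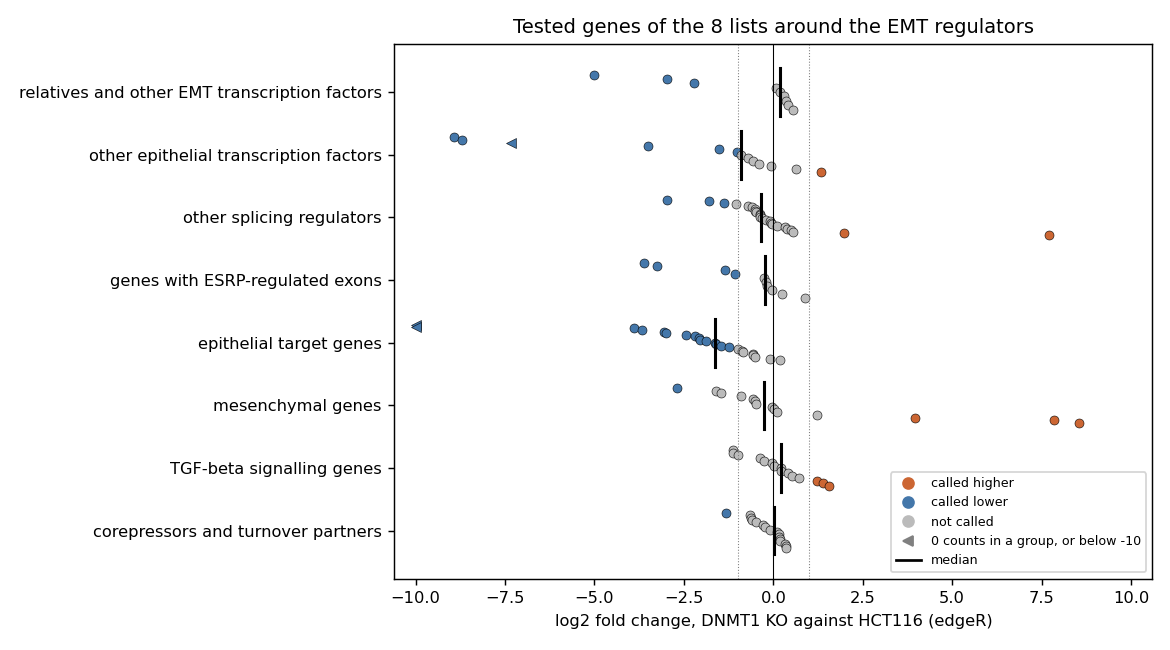
Log2 fold change, DNMT1 KO against HCT116, of every tested gene in the 8 lists (edgeR), with genes called higher in orange, called lower in blue and not called in grey. Triangles are genes with no count in a group or a value below -10, drawn at -10 where lower, and black lines are list medians. Epithelial target genes have the lowest median, -1.63, and VIM and SPARC are the 2 highest of the mesenchymal genes.

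Genes within 250 kb of the 6 called regulators were read from the same fit. None of the tested neighbours of SNAI2 (1) or GRHL2 (4) was called. ZEB1-AS1, described above, was the 1 called of 2 near ZEB1. HDAC9, whose gene ends 18575 bases from TWIST1, was called higher (log2 1.53, SE 0.29, edgeR adjusted p = 0.00181), opposite to TWIST1, with the call lost in batch 2 alone (adjusted p = 0.0693) and with glmTreat (0.142). Near ESRP1, VIRMA-DT was the 1 called of 12 tested, beside 7.42% of all genes tested called higher. VIRMA-DT rose by 1.25 (SE 0.37, edgeR adjusted p = 0.0317), opposite to ESRP1. Its call was lost without HCT116 replicate 7 or 8 or DNMT1 KO replicate 1, 2 or 3 (adjusted p 0.0533 to 0.141). It was also lost with batch as a term over all libraries (adjusted p = 0.0992) and in batch 2 alone (0.364). The same held with glmTreat (0.724) and with no filter on low counts (0.107).

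OVOL1 lies in the most gene-dense of these regions, with 29 tested neighbours, of which 4 were called lower and 1 higher, beside 6.49% and 7.42% of all genes tested. CST6, a cysteine protease inhibitor, fell by 2.86 (SE 0.31, edgeR adjusted p = 1.19e-05) and FOSL1, an AP-1 subunit, fell by 1.60 (SE 0.31, edgeR adjusted p = 0.00196). The FOSL1 call was lost with glmTreat (adjusted p = 0.102). EFEMP2, which encodes the matrix protein fibulin-4, rose by 4.99 (SE 0.44, edgeR adjusted p = 1.80e-06), from 0.549 ± 0.359 CPM in HCT116 (SD, n = 6) to 17.5 ± 1.34 CPM in DNMT1 KO (SD, n = 4). CATSPER1 (log2 -1.36, SE 0.39, edgeR adjusted p = 0.0257) and LTBP3 (log2 -1.32, SE 0.41, edgeR adjusted p = 0.0430) were near the threshold. The CATSPER1 call was lost without HCT116 replicate 9 or DNMT1 KO replicate 1, 2 or 4 (adjusted p 0.0518 to 0.0916). With batch as a term it was lost over all libraries (adjusted p = 0.0760) and over batches 1 and 2 (0.0774). The LTBP3 call was lost without HCT116 replicate 1, 2 or 3 or any 1 DNMT1 KO library (adjusted p 0.0677 to 0.120).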

How the data were processed

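Per the labels and the study's methods, poly(A) RNA was made into stranded libraries that were read from both ends. The authors trimmed reads with Trim Galore 0.4.1, aligned them to hg38 with bowtie2, an aligner that leaves junction-spanning reads unsplit, kept reads of mapping quality 10 or more and summarised exonic reads per gene in featureCounts. No strand option is named. The deposited values are raw counts, 1 table per library. A further 3 tables of HCT116 replicates lack an entry among the listed samples and were not used here. Gene positions, exon overlaps and exon lengths are those given with the deposited counts. Untranslated regions are those of GENCODE 44, which names 58472 of the 58884 genes.

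Counts were compared by edgeR 4.0.16 under R 4.3.3 (TMM, filterByExpr defaults, glmQLFTest, a two-sided test with no covariate, Benjamini-Hochberg over all genes tested). Standard errors are the size of the change over the square root of F. The scripts were tested on simulated data. The genes and lists were chosen with earlier results of these data known. List genes named are up to 4 called members by size of change, if their higher group averaged at least 1 CPM. Of the listed genes, 1 epithelial target gene and 1 leukocyte marker are not reported here by name. Neighbours named are the called genes within 250 kb. The genes most like TWIST1 were the 3 highest by Pearson's r of log2 CPM (prior count 2). Folds against 0 counts use a floor of 3 counts over the group, which covers counting error only, and list medians are the same with such genes at that bound. Low counts were mostly even in 9 libraries but not in DNMT1 KO replicate 4. Alternatives were other size factors and filters, DESeq2 1.42.0, the likelihood ratio test, glmTreat, batch terms, subsets of batches, each library left out, the replicate block and halved even counts.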

Additional observations from a re-analysis of the deposited data

Results flagged for a closer look

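The levels of the 10 genes and the other genes named were screened for single libraries that stand away from their own group, in 93 sets of values, and 8 stood apart by Dixon's criterion at 95%, which chance meets in about 1 set in 20. Among the 10 genes the one such value was ZEB2 in HCT116 replicate 1, at 0.0619 CPM (2 counts) where the other 5 libraries had none. With those 5 at 0, any count in the remaining library meets the criterion, so the rate above does not apply. The 2 counts are also below the floor of 3. In DNMT1 KO, ETS1 was at 2.54 CPM in replicate 3 against 0.711 to 0.808 in the others, RAB25 at 1.88 CPM in replicate 4 against 7.85 to 8.71, and LTBP3 at 84.1 CPM in replicate 1 against 54.0 to 58.2. In HCT116, MBNL2 was at 213.6 CPM in replicate 2 against 105 to 115 in the others, SLC37A2 at 22.8 CPM in replicate 3 against 3.61 to 7.39, PDGFRB at 0.501 CPM in replicate 7 against 0.226 to 0.294, and HDAC9 at 4.65 CPM in replicate 8 against 2.48 to 3.26.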

How the results depend on the processing

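ZEB1, SNAI2 and OVOL1 kept their direction and call in all 22 alternatives, and GRHL2 and TWIST1 in all 21 that gave a value. With at least 10 counts in every library, the last 2 were not tested, so 2 genes were called lower. ESRP1 lost its call in 2 of 22 (batch 2 alone and glmTreat). Leaving out each library gave 2 to 2 genes called higher and 4 to 4 lower, for the lists 6 to 11 and 30 to 38, and for all genes 1214 to 1587 and 987 to 1250. The halved bound of TWIST1 was added after seeing the data. The lists had 4 called higher with glmTreat and 5 in batch 2 alone. All genes called higher and lower were 734 and 766 under the filter of 10 counts, 744 and 623 with glmTreat, and 815 and 798 in batch 2 alone, where fewer genes or libraries enter or the threshold is stricter. Between HCT116 batches the 10 genes had 2 calls with no filter, 2 with at least 10 counts, 3 with DESeq2 and 0 to 4 with a library left out, and small differences changed sign for TWIST1 (0.012 with no filter, -0.17 to 0.057 with a library left out) and OVOL2 (-0.082 to 1.09 with a library left out). The cause was not tested. On library totals alone SNAI1 in DNMT1 KO was at 13.9 CPM per kb, beyond 1 SD of the value given.

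Replicate numbers shared between the groups did not pair the libraries. Deviations from group means correlated at 0.46, -0.20 and 0.37 for numbers 1, 2 and 3, and not every library was most like its own number. With the replicate block on replicates 1 to 3, 1232 genes were called higher and 1235 lower, 2 and 4 of them among the 10 genes, and 10 and 36 among the lists. Of other genes named, ZEB1-AS1, MBNL3, SKIL, HDAC1, CATSPER1 and VIRMA-DT were not called with it (adjusted p 0.0504 to 0.281). Depth limits ZEB2 and the low end of TWIST1 and GRHL2.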
